A study of Mus musculus with 9 samples.

Results

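Scavenger receptors are cell surface proteins that take up modified lipoproteins, dying cells and other waste, and 10 of their genes were followed in livers of mice labelled as lacking or carrying one of them, Msr1. The 10 genes were the 5 class A receptors Msr1, Marco, Scara3, Scara5 and Colec12, the 3 class B receptors Cd36, Scarb1 and Scarb2, and the 2 class H receptors Stab1 and Stab2. They were found by gene symbol, and all 10 were present among the 17442 genes of the table. Both groups were male C57BL/6 mice with fatty liver disease after 16 weeks on a diet high in fat and cholesterol. The first group was 5 mice labelled Msr1-/-, and the second was 4 wild-type mice, labelled Msr1+/+. The labels give neither the age of the mice nor the part of Msr1 that was deleted. RNA came from whole liver, and each mouse gave 1 library.

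Class A receptors are trimers with a collagen-like or coiled stalk, and Msr1 and Marco are the macrophage members. Class B receptors span the membrane at both ends and bind lipids: CD36 carries fatty acids, the product of Scarb1 takes up cholesterol from HDL, and that of Scarb2 works in the lysosome. Stabilins, the class H receptors, clear hyaluronan and other circulating material in the endothelium of the liver sinusoids. In the fatty liver, Kupffer cells, the resident macrophages, and infiltrating macrophages carry Msr1 and Marco, while sinusoidal endothelium carries both stabilins.

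Values below are size-factor-normalised read counts, given as mean ± SD over n = 5 livers labelled Msr1-/- and n = 4 wild-type livers. Log2 differences are Msr1-/- minus wild type from limma, and a gene was called at a Benjamini-Hochberg adjusted p under 0.05 over all 12937 genes with a mean of 10 or more. Between 15006773 and 18238932 reads per liver lay behind the values, and the lowest receptor value, of Scara3, still rested on 6 reads. Intervals printed are 95% confidence intervals of the log2 difference from limma, which rest on the variation between mice. Hepatocyte markers were present as the tissue label states, with 10 of 10 listed genes tested and summed levels of 1729592 to 2341737 in livers labelled Msr1-/- and 1274284 to 1946655 in wild type. Wild type 3 stood apart, at -88.74 on a first principal component that held 41.0% of the variance, where the other 8 livers lay between -8.3 and 27.61. Results that rest on wild type 3 are therefore given with and without it.

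None of the 10 receptor genes passed the limma threshold in the 9 livers, in either direction, where 1.37% of all tested genes did (0.703% lower and 0.665% higher in the livers labelled Msr1-/-). At an unadjusted p under 0.05, 3 of 10 passed (Msr1, Marco and Scara5, all lower in the livers labelled Msr1-/-), against 15.3% of all tested genes. edgeR also called 0 of 10 (1.43% of all genes), with 4 of 10 at an unadjusted p under 0.05 against 15.6% of all genes, and DESeq2 called 1 of 10 (5.98% of all genes), Scara5, with 4 of 10 at an unadjusted p under 0.05 against 16.4%. limma with array weights, which give each liver a weight by its fit, also called Scara5 alone (4.1% of all genes). With wild type 3 left out, limma called 2 of 10, where 4.91% of all genes were called: Scara5 was lower (2.32% of all genes were) and Cd36 higher (2.59%). edgeR and DESeq2 called the same 2 genes there, with 5.12% and 8.26% of all genes. The median log2 difference of the 10 was -0.02, and that of all tested genes 0.02. The ranges of the genotypes overlapped for each of the 10 receptors over the 9 livers, where 7.29% of tested genes did not overlap. Only Cd36 ceased to overlap without wild type 3, where 14.2% of tested genes did not overlap and 7.46% lay wholly higher in the livers labelled Msr1-/-.

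**Figure D1:**
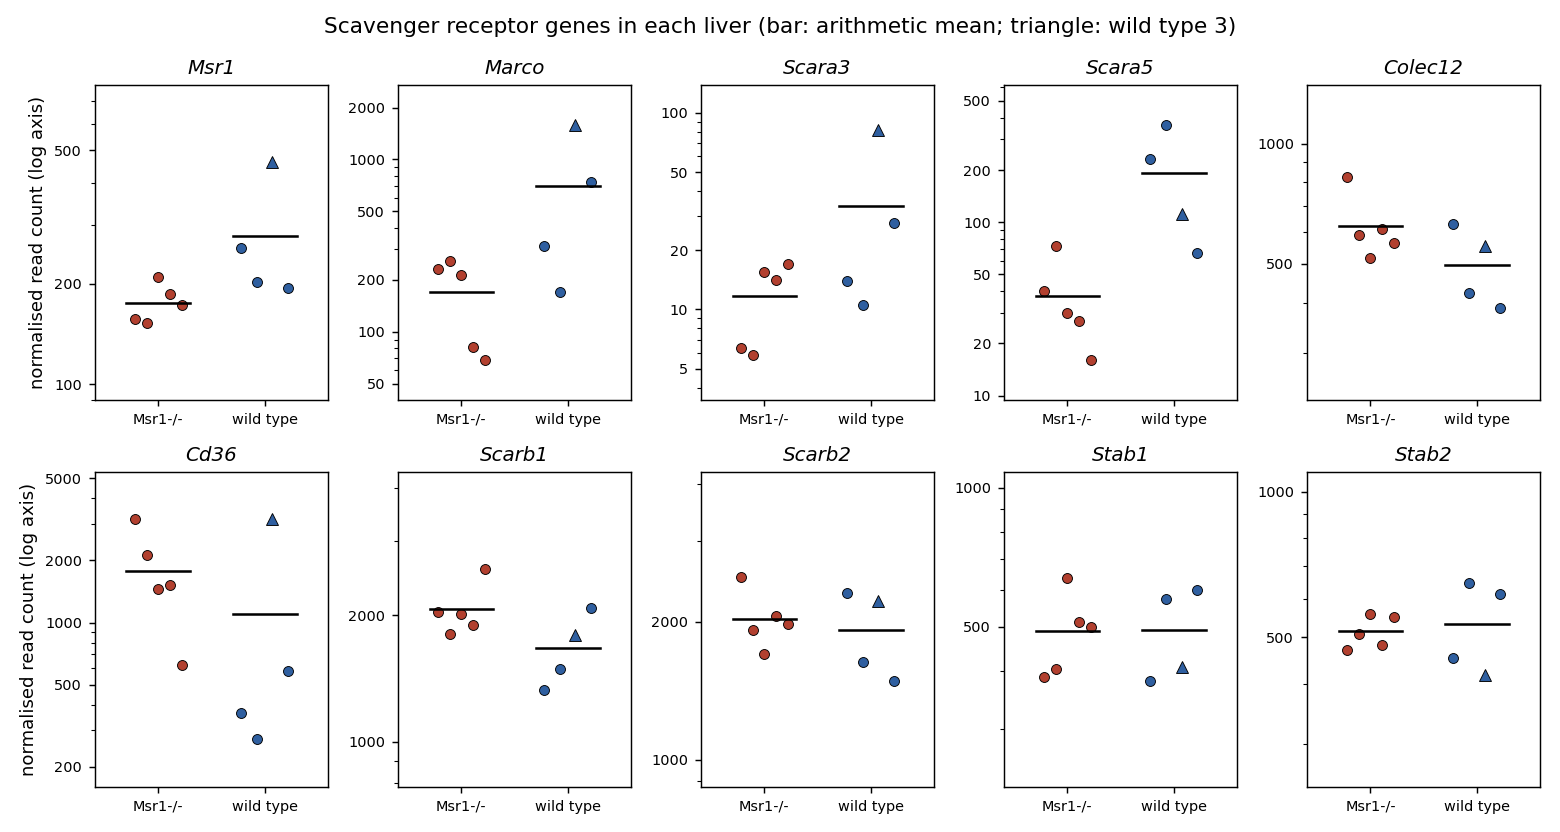
Normalised read counts (log axis) of the 10 receptor genes in each liver, livers labelled Msr1-/- on the left and wild-type livers on the right; points are single livers, bars arithmetic means, and triangles mark wild type 3. Cd36 in wild type 3 (3173) stands among the livers labelled Msr1-/-, and 3 of 4 wild-type livers exceed every liver labelled Msr1-/- for Scara5.

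**Figure D2:**
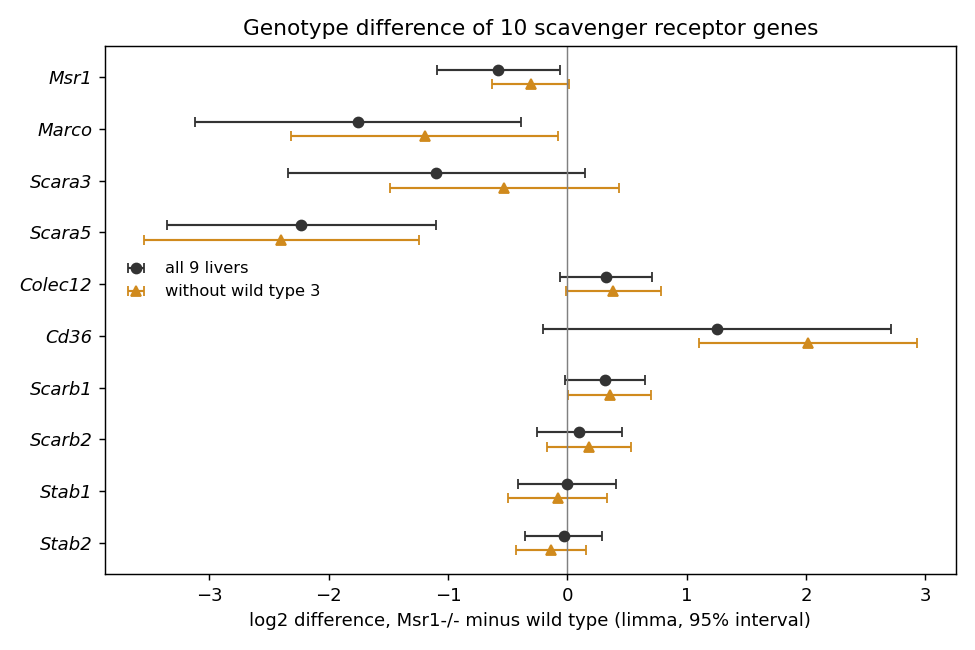
Log2 differences, Msr1-/- minus wild type, of the 10 receptor genes with 95% intervals from limma, over all 9 livers (circles) and without wild type 3 (triangles). The interval of Cd36 spans zero over 9 livers and lies between 1.10 and 2.93 without wild type 3.

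Msr1 (chromosome 8, 39581685 to 39642673, mm10, minus strand) encodes the receptor named in the genotype, and its reads were present in every liver. It stood at 157, 153, 209, 186 and 172 in the livers labelled Msr1-/- 1 to 5, against 256, 201.5, 460.5 and 194.5 in wild type 1 to 4. The genotypes overlapped, with Msr1-/- 3 above wild type 2 and 4, and wild type 3 was the highest liver. The mean log2 difference was -0.58 (two-sided exact permutation p = 0.0476), and the 126 splits of the livers allow no p below 0.0159. Leaving out wild type 3 brought it to -0.31 (exact permutation p = 0.107), and on leaving out any liver but Msr1-/- 3 the p was above 0.05. In the fit over all genes, the limma adjusted p was 0.264. A gene total does not show which exons were read, so the level of Msr1 does not settle the labels, and every direction here rests on the genotype as labelled.

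The level of Msr1 was also set against Kupffer cells, because whole liver cannot tell fewer cells of a type from less RNA per cell. The 12 Kupffer cell markers all had negative log2 differences (median -0.88), with summed levels of 5394 to 6911 in livers labelled Msr1-/- and 8171 to 16842 in wild type. Of these 12, 2 were called lower, the transcription factor gene Spic (33.5 ± 3.1 against 98.3 ± 48.0, limma adjusted p = 0.0307) and C1qa, a gene of the complement system (748 ± 100 against 1455 ± 452, limma adjusted p = 0.0355). Spic passed in 3 and C1qa in 2 of the 9 fits that leave out 1 liver, with adjusted p up to 0.0802 and 0.0922. The 8 livers without wild type 3 gave 6 called lower, at a median of -0.65. Over all tested genes, 0.703% were called lower in the 9 livers and 2.32% without wild type 3. Of all 12937 differences over 9 livers, 6116 were negative. Log2 Msr1 minus the mean log2 of the 12 markers was -0.59 ± 0.31 in livers labelled Msr1-/- and -0.86 ± 0.18 in wild type. The difference of 0.28 did not pass (exact permutation p = 0.127, adjusted p = 0.444 over 4 such ratios), and it was 0.36 without wild type 3 (exact permutation p = 0.107). The part of Kupffer cells in the Msr1 values was not tested further.

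The patterns nearest to that of Msr1 were found by centring the log2 values of each gene on its mean over the 9 livers. Likeness was the mean absolute difference of the centred values, taken against 9699 tested genes with a mean of at least 50, leaving out symbols of Gm with a number or ending in Rik. Since these genes were picked for their likeness over the same 9 livers, their genotype differences follow in part from that choice and are given as a description. Nearest were Nfam1, at a distance of 0.08, and Il18bp, one of the Kupffer cell markers, at 0.11, where the median gene lay at 0.39. Nfam1 stood at 47.5 ± 9.3 in livers labelled Msr1-/- and 82.9 ± 38.8 in wild type. Both peaked in wild type 3, Nfam1 at 140 and Il18bp at 577.

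Marco (chromosome 1, 120474538 to 120505024, mm10, minus strand) encodes a macrophage receptor for bacteria, particles and modified lipoproteins. Its level was 231, 256, 212, 81.9 and 68.1 in the livers labelled Msr1-/- 1 to 5, against 313, 170, 1591 and 734 in wild type 1 to 4. Wild type 2 lay inside the range of the livers labelled Msr1-/-, and the other 3 wild-type livers lay above it. Msr1-/- 4 and 5 held the lowest levels of the 9. The log2 difference was -1.75 with a standard error of 0.62 (3.37-fold lower), and its limma adjusted p of 0.202 missed the threshold. It was -1.195 without wild type 3, with an adjusted p of 0.204, and DESeq2 on all livers gave an adjusted p of 0.0580.

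Relative to Kupffer cells, Marco spread widely among single livers of both genotypes. Log2 Marco minus the mean log2 of the 12 markers was -0.82 ± 0.77 in livers labelled Msr1-/- and 0.075 ± 1.194 in wild type (exact permutation p = 0.222, adjusted p = 0.444 over the 4 ratios). The difference of -0.90 became -0.53 without wild type 3, when wild type averaged -0.30 (exact permutation p = 0.5). It was above zero in wild type 3 and 4, at 1.19 and 0.99, and below zero in the other 7 livers. Of the monocyte-derived macrophage markers, 9 of 9 tested also had negative log2 differences (median -1.56). In livers labelled Msr1-/-, Gpnmb, Cx3cr1, Trem2 and Itgax averaged 2.9, 6.2, 7.3 and 7.7, under the mean required for testing. They were tested only because wild type was higher (121.2, 41.5, 64.9 and 42.15), so the filter favoured negative differences there. The 9 of 9 and the median therefore follow in part from the filter. Over all tested genes, 6116 of 12937 differences were negative. The summed level of the monocyte-derived macrophage markers was 1034 to 1524 in livers labelled Msr1-/- and 1749 to 8360 in wild type. Wild type 3 held 8360 and the next liver 2434. None of those 9 was called over 9 livers. Without wild type 3, 8 were tested and 3 called lower, where 2.32% of all genes were. These were Cx3cr1, Lyz2 and Trem2 (limma adjusted p = 0.0488, 0.0133 and 0.0240). Cx3cr1 and Trem2 are among the genes named above that passed the filter only because wild type was higher. The part of monocyte-derived macrophages in the Marco values was not tested. Over 9 livers the 2 of smallest p were the lipid-sensing receptor gene Trem2 (7.3 ± 3.3 against 64.9 ± 75.7, limma adjusted p = 0.0640) and the lysozyme gene Lyz2 (603 ± 133 against 2186 ± 1859, limma adjusted p = 0.0810).

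No pattern came as near to Marco as Nfam1 did to Msr1. Haus8, which encodes a subunit of a spindle microtubule complex, lay at a distance of 0.48 and Ifi27l2b at 0.51, where the median gene lay at 1.035. Haus8 peaked at 346 in wild type 3, like Marco, while Ifi27l2b reached 1632 there.

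The promoter of Marco is printed because Marco and Cd36 had the widest spread among wild-type livers, 9.37-fold and 11.7-fold between the lowest and the highest. RefSeq promoter windows, 250 bases before to 50 after a start, were at hand for 5 of the 10 receptors (Marco, Cd36, Scarb2, Stab1 and Stab2). Capitals mark GAGGAA, the core of the motif of the myeloid transcription factor Spi1, searched on both strands. The Marco window lies at chr1:120504975-120505274 on the minus strand of GRCm38.p6.
Marco: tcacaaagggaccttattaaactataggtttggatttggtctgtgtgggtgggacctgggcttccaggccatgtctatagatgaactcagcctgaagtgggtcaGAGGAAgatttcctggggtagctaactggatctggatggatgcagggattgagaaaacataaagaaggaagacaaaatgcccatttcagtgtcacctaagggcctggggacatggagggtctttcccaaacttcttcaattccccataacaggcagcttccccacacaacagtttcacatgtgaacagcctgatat
The hexamer was found 1 time in this window and in 28.3% of 32851 promoter windows of the same length. Stab1 also held it, and Cd36, Scarb2 and Stab2 did not.

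**Figure D3:**
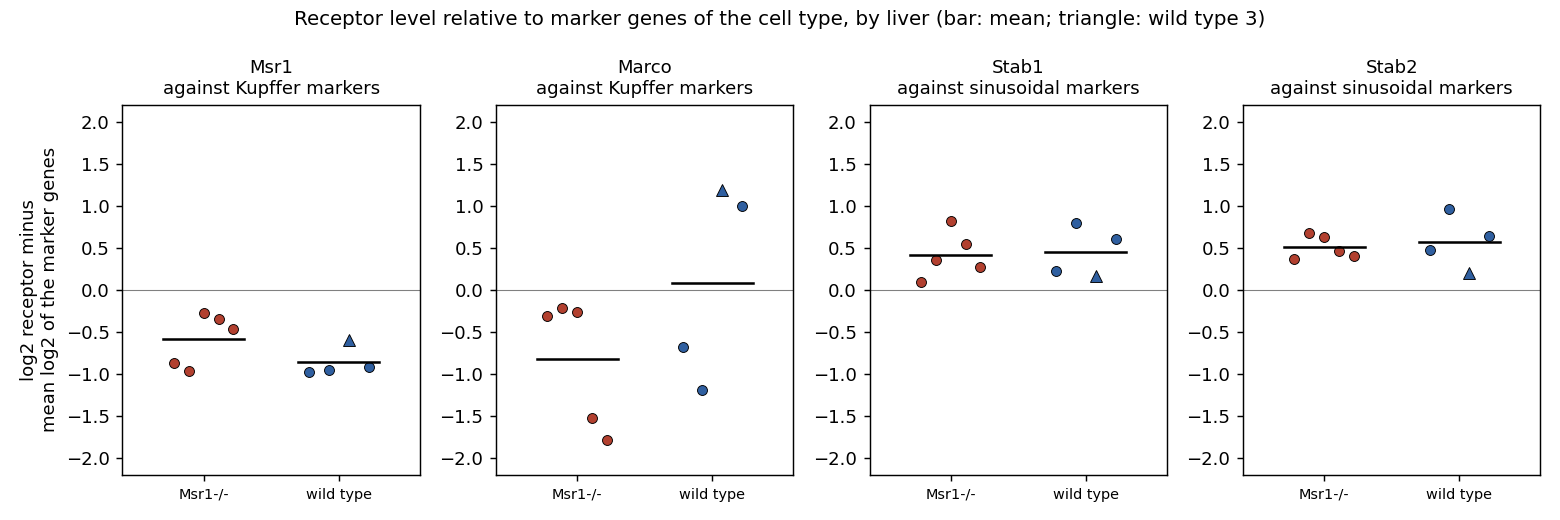
Log2 receptor level minus the mean log2 level of marker genes of the cell type, in each liver, for Msr1 and Marco against 12 Kupffer cell markers and for Stab1 and Stab2 against 11 sinusoidal endothelial markers; livers labelled Msr1-/- on the left, wild type on the right, bars are means and triangles mark wild type 3. The genotypes overlap in all 4 panels, and Marco has the widest spread.

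Scara5 (chromosome 14, 65666403 to 65764826, mm10, plus strand) encodes a class A receptor known in mice as a ferritin receptor, and it came nearest to a call. Its level was 40.3, 73.4, 30.1, 26.9 and 16.0 in the livers labelled Msr1-/- 1 to 5, against 232, 364, 111 and 66.4 in wild type 1 to 4. The genotypes overlapped only through Msr1-/- 2 and wild type 4. The log2 difference was -2.23 with a standard error of 0.51 (4.69-fold lower), and the limma adjusted p was 0.0595. edgeR gave an adjusted p of 0.0502 and DESeq2 0.000261. On leaving out wild type 3 or wild type 4, limma called Scara5 lower, at differences of -2.40 and -2.64 and adjusted p of 0.0261 and 0.0349. Leaving out any other single liver gave differences between -2.51 and -1.83, with limma adjusted p between 0.0714 and 0.139.

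Unlike Msr1, Marco and Scara3, Scara5 did not peak in wild type 3, which held the third of the 4 wild-type levels. Its nearest patterns were Fgl1 and Sqle, at distances of 0.505 and 0.517 where the median gene lay at 1.17. Fgl1, the gene of a secreted hepatocyte protein, stood at 1292 ± 275 in livers labelled Msr1-/- and 11995 ± 9989 in wild type. Sqle, an enzyme gene of cholesterol synthesis, stood at 30.9 ± 7.4 and 88.2 ± 31.6. Like Scara5, both were highest in wild type 1 and 2, where Fgl1 reached 19338 and 21861.

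Genes of ferritin and iron handling were not called with Scara5. Of 8 tested, 0 were called in either direction, and their median log2 difference was 0.06. The iron hormone gene Hamp stood at 14281 ± 6070 in livers labelled Msr1-/- and 26695 ± 11603 in wild type (limma adjusted p = 0.246). The ferritin light chain gene Ftl1 stood at 7478 ± 377 and 5946 ± 1598 (limma adjusted p = 0.309), and it was called higher without wild type 3 (limma adjusted p = 0.0214). Markers of stellate cells and of portal fibroblasts and bile ducts are given beside Scara5. Of 10 stellate cell markers 9 had negative differences and none was called, with summed levels of 5844 to 6708 in livers labelled Msr1-/- and 5800 to 12393 in wild type (up to 7469.9 without wild type 3). The stellate cell genes of smallest p were Reln, which encodes a secreted matrix protein (499 ± 42 against 619 ± 50, limma adjusted p = 0.191), and the growth factor receptor gene Pdgfrb (82.8 ± 19.2 against 137 ± 51, limma adjusted p = 0.214). Of 7 tested portal fibroblast and bile duct markers 6 had negative differences over 9 livers. Among the 6, Epcam averaged 8.2 in livers labelled Msr1-/- and 13.4 in wild type. It was tested only because wild type was higher, so that count follows in part from the filter. Without wild type 3, 6 were tested. Sox9 (-1.38), Thy1 (-0.96) and Spp1 (-0.80) were negative there, and Fbln2 (1.04), Entpd2 (0.05) and Eln (0.02) positive. Genes of this list besides Sox9 and Spp1 are named here after their values were seen. Summed levels were 345 to 644 in livers labelled Msr1-/- and 721 to 1935 in wild type (up to 819.7 without wild type 3, where Scara5 did not peak). The bile duct transcription factor gene Sox9 was called, at 27.7 ± 5.1 against 77.7 ± 14.2 (limma adjusted p = 0.0103) and in 9 of 9 fits that leave out 1 liver, and Spp1, which encodes osteopontin, stood at 338 ± 102 against 802 ± 469 (limma adjusted p = 0.101). The part of these cells in the Scara5 values was not tested.

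Scara3 (chromosome 14, 65919394 to 65953935, mm10, minus strand) encodes a class A member linked to protection from oxidants, and it had the lowest level of the 10. It stood at 6.36, 5.87, 15.5, 14.03 and 17.0 in the livers labelled Msr1-/- 1 to 5, against 13.9, 10.6, 81.6 and 27.5 in wild type 1 to 4. Wild type 3 held the highest level, and wild type 1 and 2 lay within the range of the livers labelled Msr1-/-. The log2 difference of -1.10 (limma adjusted p = 0.399) was -0.53 without wild type 3, when the fold was 1.44 in place of 2.14. Scara3 lies 154567 bases from Scara5 on the same chromosome. The 2 genes did not share a pattern: Scara5 lay at a distance of 1.499 from Scara3, while Msr1 lay at 0.55. Over all genes the nearest to Scara3 were Arhgef2 and Npdc1, each at 0.36.

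Colec12 (chromosome 18, 9707595 to 9882644, mm10, plus strand) encodes a class A receptor with a C-type lectin head, found on vascular endothelium. Its values were 825, 589, 516, 612 and 565 in the livers labelled Msr1-/- 1 to 5, against 628, 422, 554 and 388 in wild type 1 to 4. All 5 livers labelled Msr1-/- were above wild type 2 and 4 and only Msr1-/- 1 was above wild type 1. The log2 difference was 0.33, with a 95% interval of -0.06 to 0.71 and a limma adjusted p of 0.425. Its nearest patterns were Reps2 and the mitochondrial carrier gene Slc25a16, each at a distance of 0.08, where the median gene lay at 0.305. Among the receptors Scarb2 came nearest to it, at 0.11.

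Cd36 (chromosome 5, 17781690 to 17888801, mm10, minus strand) encodes a fatty acid transporter and receptor for oxidised lipoproteins, known to increase in hepatocytes of fatty liver. Its level was 3170, 2126, 1453, 1524 and 619 in the livers labelled Msr1-/- 1 to 5, against 364, 271, 3173 and 579 in wild type 1 to 4. Every liver labelled Msr1-/- lay above wild type 1, 2 and 4, while wild type 3 matched the highest of them. The log2 difference over 9 livers was 1.26 with a standard error of 0.66, and the limma adjusted p was 0.417. Once wild type 3 was left out, wild type averaged 404 ± 158, Cd36 was 4.04-fold higher in the livers labelled Msr1-/- and it was called (log2 difference 2.02, limma adjusted p = 0.0201). edgeR and DESeq2 without wild type 3 gave adjusted p of 0.0213 and 0.00131, and over all 9 livers 0.727 and 0.798.

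Mogat1 and Slc16a5 had the patterns nearest to Cd36. Mogat1, an enzyme gene of triglyceride synthesis, lay at a distance of 0.17, and the transporter gene Slc16a5 at 0.27, where the median gene lay at 1.14. Mogat1 stood at 176, 107, 81.3, 105 and 30.1 in the livers labelled Msr1-/- 1 to 5, against 16.0, 16.9, 151 and 35.1 in wild type 1 to 4. As with Cd36, wild type 3 stood among the livers labelled Msr1-/-, and Msr1-/- 5 was nearest to wild type 4. Slc16a5 stood at 150.5, 148, 166, 153 and 54.1 in the livers labelled Msr1-/- 1 to 5, against 35.3, 24.3, 254 and 52.2 in wild type 1 to 4, so it was highest in wild type 3 and did not follow the order of Cd36 among the livers labelled Msr1-/-. The log2 differences, chosen with the pattern, were 1.28 for Mogat1 and 1.09 for Slc16a5 over 9 livers, and 1.98 and 1.79 without wild type 3.

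**Figure D4:**
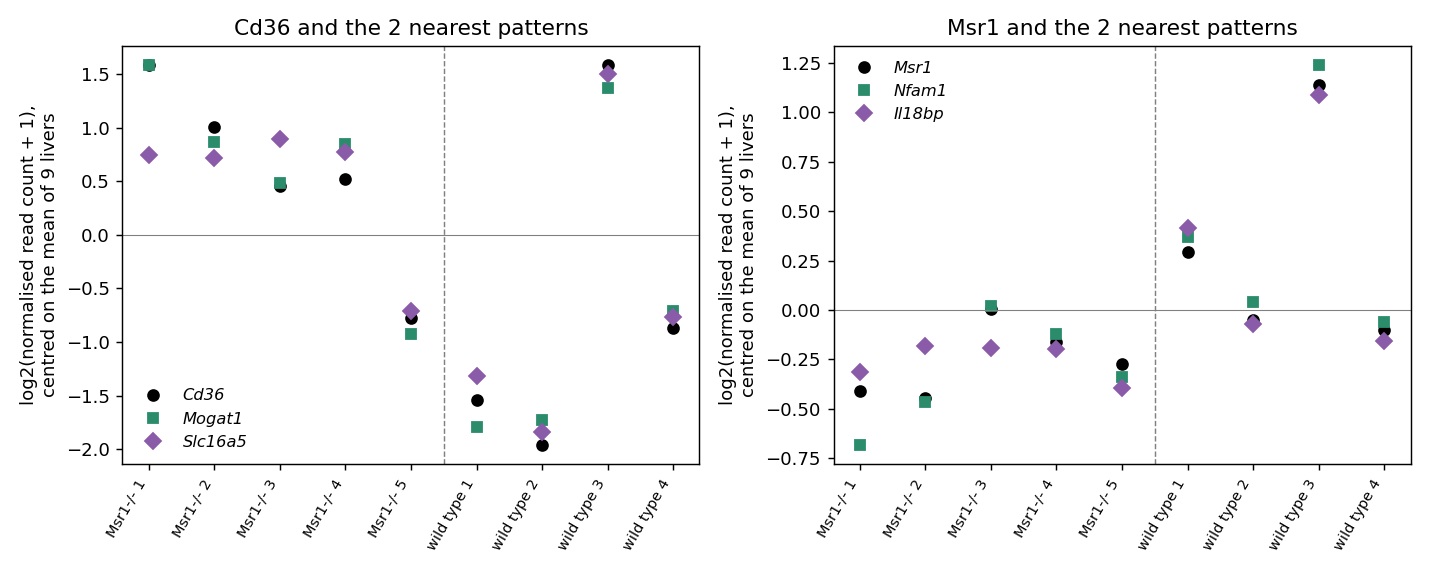
Log2(normalised read count + 1) of Cd36 with Mogat1 and Slc16a5 (left) and of Msr1 with Nfam1 and Il18bp (right) in each liver, centred on the mean of the 9 livers; the dashed line divides livers labelled Msr1-/- on the left from wild type on the right. On the left, Msr1-/- 5 is the lowest of the livers labelled Msr1-/-, and wild type 3 is the highest wild-type liver in all 6 genes.

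Of 18 tested genes listed around fatty acid uptake, 1 was called over 9 livers, the fatty acid binding protein gene Fabp5. It fell to 57.5 ± 7.8 in livers labelled Msr1-/-, against 404 ± 247 in wild type (limma adjusted p = 0.01), a call made in 9 of 9 fits that leave out 1 liver. Acsl1, which encodes the main acyl-CoA synthetase of liver, stood at 17523 ± 2110 and 10399 ± 2370 (limma adjusted p = 0.0618). Over the 8 livers without wild type 3, 3 genes of the list were called higher and 1 lower: Slc27a4, a fatty acid transporter gene (log2 difference 0.61, limma adjusted p = 0.0167), Acsl1 (0.60, limma adjusted p = 0.0259) and Pparg, which encodes a lipid-sensing nuclear receptor (1.16, limma adjusted p = 0.0285), beside Fabp5. The median log2 difference of the list was -0.32 over 9 livers and -0.18 without wild type 3. The list also held genes other than binding proteins, transporters and synthetases, named here after their values were seen. Of these, Tlr4, Tlr6, Lyn, Fyn, Thbs1, Cav1 and Cav2 had negative differences over 9 livers and Pparg a positive one. The medians therefore do not describe uptake genes alone. In the whole list 11 differences were negative and 7 positive over 9 livers. In livers labelled Msr1-/-, Tlr6 and Thbs1 averaged 9.4 and 7.0, under the mean required for testing. They were tested only because wild type was higher (19.9 and 17.6), so these counts and the median follow in part from the filter. Thbs1 was not tested without wild type 3, where 17 genes of the list were. Pparg stood at 434 in wild type 3. Adipocyte markers were checked because fat cells carry Cd36. Adipoq, which defines them, stood at 0.39 ± 0.54 in livers labelled Msr1-/- and 2.29 ± 0.93 in wild type, too low to test. Of the other 2 with values, Cfd was called higher, at 231 ± 170 against 24.4 ± 27.4 (limma adjusted p = 0.0436), a call made in 3 of 9 fits that leave out 1 liver (adjusted p up to 0.113). The summed level of the 3 was 106 to 684 in livers labelled Msr1-/- and 38.0 to 2262 in wild type. The highest sum, in wild type 3, was nearly all Cidec. The listed markers Plin1, Lep and Retn had no values, and the part of fat cells in the Cd36 values was not tested. Cidec, whose protein coats lipid droplets, stood at 313.5 ± 208.7 against 646 ± 1074 (limma adjusted p = 0.870), and at 2247 in wild type 3. Its log2 difference was nonetheless 0.66, and without wild type 3 wild type averaged 112 ± 148 and the difference was 1.96 (limma adjusted p = 0.209).

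The promoter window of Cd36 lies at chr5:17835847-17836146 on the minus strand of GRCm38.p6, inside the gene span given above. It is shown for the comparison with Marco, and capitals mark TGACCT, the reverse complement of AGGTCA, the half-site that nuclear receptors such as the PPARs bind.
Cd36: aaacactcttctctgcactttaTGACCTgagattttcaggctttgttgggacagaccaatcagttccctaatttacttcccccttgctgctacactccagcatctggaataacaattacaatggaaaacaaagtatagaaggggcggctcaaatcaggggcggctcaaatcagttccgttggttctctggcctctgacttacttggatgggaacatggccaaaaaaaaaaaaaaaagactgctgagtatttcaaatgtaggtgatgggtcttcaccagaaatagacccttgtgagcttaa
The half-site was searched on both strands and was found 1 time in the Cd36 window, 2 times in that of Stab2 and not in those of Marco, Scarb2 and Stab1. Of the 32851 windows, 16.3% held it.

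Scarb1 (chromosome 5, 125277087 to 125341094, mm10, minus strand) encodes SR-BI, through which hepatocytes take cholesterol from HDL. It stood at 2037, 1805, 2013, 1898 and 2577 in the livers labelled Msr1-/- 1 to 5, against 1329, 1490, 1793 and 2079 in wild type 1 to 4. All 5 livers labelled Msr1-/- were above wild type 1, 2 and 3, and only Msr1-/- 5 was above wild type 4. The log2 difference was 0.31 with a 95% interval of -0.02 to 0.65 and a limma adjusted p of 0.363. Of 14 genes of HDL handling, 0 were called in either direction, 11 had positive differences and the median was 0.23. The genes of smallest p were Abcg8 (3898 ± 748 against 2224 ± 830, limma adjusted p = 0.0967) and Abcg5 (4844 ± 993 against 2944 ± 1513, limma adjusted p = 0.195), which encode the partners of the transporter that sends sterols into bile. The nearest patterns to Scarb1 were Pigl, an enzyme gene of membrane anchor synthesis, at 0.07 and the transcription factor gene Myrf at 0.08.

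Scarb2 (chromosome 5, 92441314 to 92506833, mm10, minus strand) encodes LIMP-2, which carries the enzyme glucocerebrosidase to lysosomes. Its level ranged from 1704 to 2506 in livers labelled Msr1-/- and from 1483 to 2316 in wild type, so the wild-type range covered most of the other. The log2 difference of 0.10 had a 95% interval of -0.26 to 0.46 (limma adjusted p = 0.848) and was -0.01 without wild type 4. Among 12 lysosomal genes 0 were called over 9 livers, at a median of -0.04, and 1 without wild type 3, the acid lipase gene Lipa, which was higher (limma adjusted p = 0.0282). Cd63 (51.7 ± 10.6 against 165 ± 184, limma adjusted p = 0.301) and the cholesterol exporter gene Npc1 (1950 ± 189 against 1613 ± 351, limma adjusted p = 0.407) had the smallest p of the list. Yme1l1 and Tmed7 had the nearest patterns, each at a distance of 0.04.

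Both stabilin genes had log2 differences near zero. Stab1 (chromosome 14, 31139013 to 31168641, mm10, minus strand) stood at 389, 405, 637, 511 and 499.9 in the livers labelled Msr1-/- 1 to 5, against 382, 575, 408 and 599.6 in wild type 1 to 4. Stab2 (chromosome 10, 86841198 to 87008025, mm10, minus strand) stood at 470.5, 508, 559, 482 and 551 in the livers labelled Msr1-/- 1 to 5, against 453, 647, 417 and 614 in wild type 1 to 4. In both genes wild type 2 and 4 were high and wild type 1 and 3 low, and the genotypes overlapped widely. The log2 difference was -0.002 for Stab1, with a 95% interval of -0.41 to 0.41, and -0.03 for Stab2, with an interval of -0.35 to 0.29. The sign turned with single livers left out, and for Stab1 also under TMM scaling, so neither has a stable direction.

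The 2 stabilins were close in pattern. Their centred log2 values differed by 0.14 per liver on average, and of all pairs of the 10 receptors only Colec12 and Scarb2 were closer, at 0.11. The measure is not scaled by variation, so receptors that vary little lie near each other. A gene with the same value in every liver would lie at 0.25 from Stab1 and 0.17 from Stab2. The median gene lay at 0.32 and 0.26. The nearest patterns over all genes were Rai1 and Man2c1 for Stab1, each at 0.07, and Trim28 and Stk25 for Stab2, each at 0.05.

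Of 11 other markers of sinusoidal endothelium 0 were called in either direction, the median log2 difference was 0.00, and summed levels were 4657 to 6024 in livers labelled Msr1-/- and 4495 to 5716 in wild type. Ehd3 (837 ± 81 against 720.5 ± 148.8, limma adjusted p = 0.507) and Fcgr2b (937 ± 56 against 1066 ± 216, limma adjusted p = 0.657) had the smallest p. Single markers varied more, such as Lyve1, named here after its values were seen, which ranged from 48.9 to 69.0 in livers labelled Msr1-/- and from 19.0 to 204 in wild type. Relative to these markers, log2 Stab1 was 0.41 ± 0.28 in livers labelled Msr1-/- and 0.45 ± 0.30 in wild type (exact permutation p = 0.857). Log2 Stab2 was 0.51 ± 0.14 and 0.57 ± 0.32 relative to the same markers (exact permutation p = 0.667), and the adjusted p over the 4 ratios was 0.857 for both. Among 9 genes of stabilin ligands and of protein and hyaluronan turnover 0 were called, with Fcgrt, which encodes the receptor that recycles antibodies and albumin, at 2560 ± 106 against 2012 ± 120 (limma adjusted p = 0.0899) and the hyaluronidase gene Hyal1 at 238.5 ± 33.2 against 164.5 ± 54.5 (limma adjusted p = 0.195). Fcgrt was called higher without wild type 3 (limma adjusted p = 0.0428).

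Levels of different receptors were compared per kilobase of merged exons. In livers labelled Msr1-/- the order was Cd36 (495 ± 263 normalised counts per kb), Scarb2 (324 ± 47), Scarb1 (243 ± 35), Marco (88.2 ± 45.8), Colec12 (71.2 ± 13.6), Stab2 (58.7 ± 4.5), Stab1 (47.5 ± 9.7), Msr1 (27.6 ± 3.6), Scara5 (6.13 ± 3.60) and Scara3 (3.27 ± 1.46). Neighbours in this order overlapped in range, except Scarb1 above Marco, Stab1 above Msr1 and Msr1 above Scara5. In wild type Marco came first, at 365 ± 332 per kb, followed by Cd36 at 305.5 ± 387.3 and Scarb2 at 305 ± 66, whose ranges overlapped. Over the other 3 wild-type livers the means per kb were 288 ± 71 for Scarb2, 211 ± 152 for Marco, 192 ± 46 for Scarb1 and 113 ± 44 for Cd36. In wild type the only break between neighbours lay between Scarb1 and Stab2. Cd36 thus held the first place of 10 by mean level in livers labelled Msr1-/- and the fourth in the 3 other wild-type livers.

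The remaining classes of scavenger receptor were described for comparison from a list of 14 genes. Of these 11 could be tested, and 0 were called in either direction over 9 livers, at a median log2 difference of -0.27. The macrophage receptor gene Cd68 (169 ± 31 against 324 ± 169, limma adjusted p = 0.153) and the hyaluronan receptor gene Cd44 (93.3 ± 12.5 against 208 ± 122, limma adjusted p = 0.120) had the smallest p. Neither overlapped between the genotypes over 9 livers, nor did Clec7a of the same list, where 7.29% of all tested genes did not overlap. With wild type 3 left out, Cd44 and the glucan receptor gene Clec7a were called lower in livers labelled Msr1-/- (limma adjusted p = 0.0492 and 0.0365).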

How the data were processed

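Liver RNA of 9 male mice was sequenced, 5 labelled Msr1-/- and 4 wild type, 1 library per animal, made with a TruSeq kit per the labels' protocols, with no strand setting given. Per the submitters' processing notes, which give no versions, the tools were STAR, HTSeq and DESeq2 and the build was mm10. The authors deposited 1 signal per gene and liver, a read count divided by a size factor, for 17442 genes. Values were whole multiples of 1 step per liver within 0.01 reads (100% of values), so reads were recovered, 15006773 to 18238932 per liver. All columns matched a labelled animal. No pair of libraries was a duplicate (lowest chi-square per degree of freedom 21.3).

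Values were taken as log2(value + 1), a scale that understates changes of low genes, and the 12937 genes whose mean reached 10 were tested. Genotype was fitted alone with limma-trend (limma 3.58.1, R 4.3.3), and p-values were adjusted by Benjamini-Hochberg over all tested genes. Single values were tested by two-sided exact permutation, doubling the smaller tail. The fits were tested on simulated data. Alternatives were pseudocounts of 0.5 and 5, no filter or a mean of 50, TMM and quantile scaling, array weights, edgeR 4.0.16 and DESeq2 1.42.0 on recovered reads, a block for animal number, and leaving out livers one at a time. edgeR and DESeq2 without wild type 3, and lists without wild type 3, were added after seeing the data. Same-numbered animals were not treated as pairs, since their deviations from the genotype means correlated at 0.025, -0.077, -0.102 and 0.218. Gene positions and exon lengths are from GENCODE M21 (GRCm38, the assembly of mm10), and promoters from RefSeq (GRCm38.p6).

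The receptors and lists were chosen with earlier results of these data known, so no list is tested as such. Named are the 10 receptors, in each list the called genes (at most 4) and the 2 genes of smallest p, and for each receptor the 2 nearest patterns, defined in the text. Genes named outside this rule are marked as such.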

Additional observations from a re-analysis of the deposited data

Results flagged for a closer look

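A single liver stood far from the other members of its group, by the 95% critical value of Dixon's gap test, in 11 of 80 groups of values looked at. That test passes about 1 in 20 groups of independent, normally distributed values. These groups share the same livers and most hold untransformed counts, so 11 of 80 cannot be weighed against that rate. Of the 11, 8 concerned wild type 3. Among the receptors this was Cd36, at 3173 in wild type 3 with the next wild-type liver at 579. Msr1 relative to the Kupffer cell markers, at -0.60 in wild type 3, was also apart from the next wild-type liver at -0.92. In the same liver the lysosomal genes Cd68 (577, next 251) and Cd63 (439, next 94.9), the macrophage genes Trem2 (178, next 33.8) and Lyz2 (4949, next 1451.5), Spp1 (1505, next 600.5) and the lipid droplet gene Cidec (2247, next 283) stood apart. The other cases were C1qa at 919.9 in Msr1-/- 2 (next 753), Reln at 544 in wild type 1 (next 638) and Cfd at 65.5 in wild type 4 (next 11.8).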

How the results depend on the processing

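The count called lower was 1, Scara5, under DESeq2, under array weights, and under edgeR and DESeq2 without wild type 3, and it ranged from 0 to 1 when single livers were left out (1 without wild type 3 or 4). The count called higher was 1, Cd36, under edgeR and DESeq2 without wild type 3, and ranged from 0 to 1 when single livers were left out (1 without wild type 3). The Msr1 difference ranged from -0.719 to -0.306 with single livers left out, and its p was above 0.05 in 8 of those 9. With the animal number as a replicate block over 4 pairs it was -0.575 (exact sign-flip p = 0.125), Stab1 against sinusoidal markers was 0.001, and the block left 0 receptors called and 0 genes lower and 8 higher over all genes, against 91 and 86. The labels give same-numbered animals nothing in common but the number, and 1 of 8 livers correlated best with its own. Whether such animals shared a batch cannot be told from the labels. With single livers left out, Stab1 and Stab2 against sinusoidal markers ranged from -0.136 to 0.077 and from -0.186 to 0.067. The log2 differences ranged from -0.113 to 0.103 for Stab1, from -0.139 to 0.072 for Stab2 and from -0.013 to 0.201 for Scarb2, and TMM scaling gave 0.002 for Stab1. Marco, Scara3, Scara5, Colec12, Cd36, Scarb1 and Msr1 kept their direction under every alternative run. A minimum mean of 50 left Scara3 untested. Calls over all genes were 466 lower and 307 higher under DESeq2, 254 and 277 under array weights, and from 17 to 297 lower and from 19 to 332 higher with single livers left out, the highest without wild type 3. The causes of these shifts were not tested. Scara3, with 6 to 104 reads per liver, is the receptor that depth limits most.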

Other observations

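Cd163, the haemoglobin scavenger receptor gene of tissue macrophages, was lowest in wild type 3. It and the genes set beside it were singled out after their values were seen. It stood at 14.9 in wild type 3, and the next lowest of the 9 livers was wild type 4 at 111. The livers labelled Msr1-/- held 142 ± 15 (n = 5) and the other 3 wild-type livers 270.4 ± 138.8. In wild type 3 the macrophage genes Marco, Msr1, Clec7a and Cd68 were the highest of the 9 livers. The Kupffer cell gene Fcna, at 451.9, was the lowest of the 9 and Timd4, at 119, the lowest of wild type. Most of the 12 Kupffer cell markers went the other way and were highest of wild type there, such as C1qa at 2124. Their summed level was 16842 in wild type 3 and at most 11310 in the other wild-type livers. Over 9 livers the log2 difference of Cd163 was 0.22 (limma adjusted p = 0.934), and without wild type 3 it was -0.755 (limma adjusted p = 0.193).

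Among the livers labelled Msr1-/-, the receptors differed in how even they were. The highest liver was 5.12 times the lowest for Cd36, 4.58 times for Scara5 and 3.76 times for Marco, and 1.19 times for Stab2 and 1.37 times for Msr1.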
